A study of Mus musculus with 59 samples.

Results

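Meg3, Rian, Mirg, Snhg11 and Malat1 are long non-coding RNAs of the brain, examined as a set of 5 genes picked by symbol from the 20689 genes of the deposited table. All 5 symbols were found in the table, so no member is missing. The values come from 59 single cells of the mouse brain that the labels call chemical-induced neurons, with an age label of 12 weeks. The study set out to turn astrocytes into neurons with chemicals in the living animal, and each library was made from the soma of a patch-clamped cell drawn into a pipette in vivo. The labels give 1 group, no strain, sex, dose or chemical, and no animal, so the cells count as 1 sample, their spread may be technical or between animals, and no p-value was computed. The labels name no marker of astrocyte origin, and untreated or control cells were not analysed here.

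Meg3, Rian and Mirg lie in a row in the imprinted Dlk1-Dio3 region, where the long non-coding RNAs are made from the maternal chromosome and the protein-coding genes Dlk1, Rtl1 and Dio3 from the paternal one. Meg3 is a nuclear RNA used widely as a marker of neurons in brain cell surveys. Rian carries small nucleolar RNAs (snoRNAs) and Mirg carries microRNAs (miRNAs) in its introns and exons. Snhg11 is a snoRNA host gene with high levels in neurons, and Malat1 is an abundant nuclear RNA of splicing speckles that nearly all cell types make. Levels are FPKM, which divides the fragments of a gene by its exon length and by the mapped fragments of the cell, so genes of different length can be compared. Detection means an FPKM of at least 1.

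On GRCm38 with GENCODE M21, Meg3 (ENSMUSG00000021268.17) spans chr12:109541001-109571726, Rian (ENSMUSG00000097451.10) chr12:109603940-109661716 and Mirg (ENSMUSG00000097391.8) chr12:109729764-109749460, all on the plus strand. A gap of 32.2 kb separates Meg3 from Rian and 68.0 kb separates Rian from Mirg, and 208 kb lie between the start of Meg3 and the end of Mirg. The protein-coding gene Rtl1 sits on the opposite strand in the gap after Meg3. Snhg11 (ENSMUSG00000044349.15) spans chr2:158375638-158386145 on the plus strand, and Malat1 (ENSMUSG00000092341.3) chr19:5795690-5802672 on the minus strand. GENCODE M21 types Snhg11 as protein_coding, whereas RefSeq types all 5 genes as lncRNA.

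**Figure D1:**
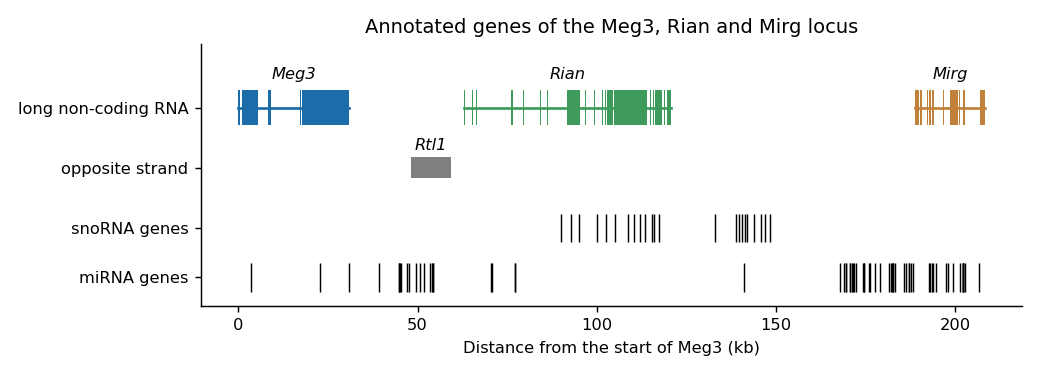
Map of the Meg3, Rian and Mirg locus in kb from the start of Meg3, with exons as filled blocks, Rtl1 on the opposite strand, and annotated snoRNA and miRNA genes of both strands as ticks. The 3 long RNAs cover 208 kb, with snoRNA genes in and after Rian and miRNA genes dense before and within Mirg.

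The RefSeq table places 26 mature miRNAs within Mirg, 6 within Rian and 3 within Meg3. It lists 14 hairpins within Mirg, 3 within Rian and 1 within Meg3, where the mature miR-1906 is given without a hairpin. Of the 14 hairpins in Mirg, 4 lie wholly inside an exon of the GENCODE gene, so reads of Mirg exons include part of these sequences. A pair of the 35 mature miRNAs, miR-453 and miR-496a-5p, share a seed, the bases 2 to 8 that pair with target messages. The following mature miRNAs are shown because they are what each host carries. All are written 5′ to 3′ from RefSeq (GRCm38.p6), with the seed in capitals.
miR-770-3p in Meg3 (chr12:109563744-109563765): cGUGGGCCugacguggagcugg
miR-370-3p in Rian (chr12:109618305-109618326): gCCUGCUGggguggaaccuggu
miR-134-5p in Mirg (chr12:109734145-109734166): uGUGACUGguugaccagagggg
miR-485-3p in Mirg (chr12:109734946-109734967): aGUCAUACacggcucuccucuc
miR-410-3p in Mirg (chr12:109743764-109743784): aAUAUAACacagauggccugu
miR-453 in Mirg (chr12:109735669-109735692): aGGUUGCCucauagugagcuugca
miR-496a-5p in Mirg (chr12:109739132-109739152): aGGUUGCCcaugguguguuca
These mature RNAs were not measured, and the levels below are those of the long transcripts.

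The 59 cells differed widely in depth, which bears on every low value. The estimated number of fragments per cell had a median of 912917 and ran from 29028 to 2949070, and the number of genes detected ran from 475 to 10310 with a median of 3984. A count of 3 fragments corresponded to a median of 0.174 FPKM for Meg3, 0.0940 for Rian, 0.450 for Mirg, 0.385 for Snhg11 and 0.470 for Malat1, so a cell listed at 0 may hold a level up to about this value. In the shallowest cell the same 3 fragments made 5.47 FPKM of Meg3 and 14.2 FPKM of Mirg. The cells also carried RNA of glia. Of all genes in the table, 11.7% were detected in at least 50% of cells. Among 10 oligodendrocyte markers 9 were, with a summed level of 14.6 to 29150 FPKM, and among 25 neuronal protein-coding genes 24 were, with 0.189 to 9822 FPKM. Of the microglia markers 7 of 12, and of the astrocyte markers 6 of 14, reached 50% of cells, with summed levels of 0 to 36230 and 0 to 4356 FPKM. The part of these transcripts in the levels below was not tested.

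Malat1 was the highest of the 5 RNAs and was detected in 59 of 59 cells (100%, exact Clopper-Pearson 95% interval 93.9 to 100%). Its lowest value was 4.08 FPKM in cell 62, its median 463 FPKM and its highest 6867 FPKM in cell 22. At least 100 FPKM was reached in 51 cells. It ranked 64th in the median cell when all genes were ordered by FPKM, 2nd in cell 22 and 2757th in cell 7, and it was among the 100 highest genes in 34 cells. Malat1 ends in a genome-encoded stretch of A instead of an added poly(A) tail, and in the mature RNA this stretch folds with upstream runs of T into a triple helix that protects the end. The window around it is shown here from GENCODE M21 transcripts (chr19:5795976-5796089, minus strand), with the run of 12 A and the runs of at least 5 T in capitals.
Malat1 3′ end: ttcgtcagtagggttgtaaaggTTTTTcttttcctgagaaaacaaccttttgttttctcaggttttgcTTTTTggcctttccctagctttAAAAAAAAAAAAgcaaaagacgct
The labels do not say how these RNAs were primed for sequencing.

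Meg3 was detected in 52 of 59 cells (88.1%, interval 77.1 to 95.1%), the widest of the RNAs after Malat1. It was listed at 0 in 3 cells, had a median of 13.7 FPKM with quartiles of 5.73 and 53.9, and reached 489 FPKM in cell 13. Cells 13, 61 and 12 stood at the top with 489, 309 and 252 FPKM, resting on 27234, 7351 and 8496 recovered fragments. At least 100 FPKM was reached in 7 cells and at least 10 FPKM in 34.

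Snhg11 was detected in 45 of 59 cells (76.3%, interval 63.4 to 86.4%). Its lowest value was 0 in 8 cells, its median 5.39 FPKM with quartiles of 1.32 and 27.5, and its highest 616 FPKM in cell 61. The 3 cells highest for Meg3 were also high for Snhg11, at 517 FPKM in cell 13, 616 FPKM in cell 61 and 259 FPKM in cell 12. Cell 2 went the other way, with 141 FPKM of Meg3 and Snhg11 listed at 0.

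Rian was detected in 16 of 59 cells (27.1%, interval 16.4 to 40.3%) and was above 0 in 33. Its median was 0.0626 FPKM and its highest value 9.55 FPKM in cell 42. The spacing of the low values of Rian corresponds to an exon length of about 35.0 kb, 1.92 times the 18.2 kb of GENCODE M21, and at the GENCODE length each value of Rian would be higher by that factor. All values of Rian here are as deposited. For Meg3 the same estimate gave 18.9 kb against 18.1 kb. At the GENCODE length 24 cells (40.7%) would reach an FPKM of 1, and the median would be 0.120 FPKM. At least 3 recovered fragments of Rian were present in 29 cells.

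Mirg was the sparsest, with 7 of 59 cells at an FPKM of 1 or more (11.9%, interval 4.91 to 22.9%) and 11 cells above 0. It was listed at 0 in 48 cells, and its highest value was 14.0 FPKM in cell 61, from 128 fragments. The other cells at 1 FPKM or more were cells 12, 58, 13, 33, 17 and 23, with 5.15, 3.70, 4.23, 3.68, 2.96 and 1.56 FPKM. Malat1, Meg3 and Snhg11, 3 of the 5 RNAs, were detected in at least 50% of cells, and Rian and Mirg were not.

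**Figure D2:**
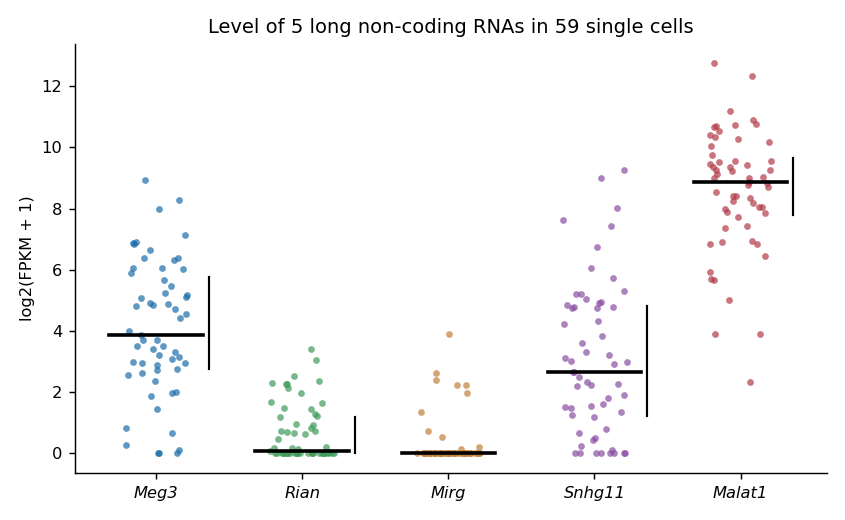
Levels of the 5 RNAs in 59 cells as log2(FPKM + 1), 1 point per cell, with the median as a thick line and the quartiles as a thin bar beside the points. Malat1 lies highest with no cell at 0, Meg3 and Snhg11 overlap over most of their range, and Mirg is at 0 in 48 cells.

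The order of the levels per kilobase was Malat1, Meg3, Snhg11, Rian and Mirg by median. Malat1 exceeded Meg3 in 58 of 59 cells, with a median ratio of 17.4 over the 56 cells with Meg3 above 0. The exception was cell 62, where Meg3 stood at 20.6 FPKM and Malat1 at 4.08 FPKM. Meg3 exceeded Snhg11 in 43 cells, was below it in 13 and equalled it at 0 in 3. Its median ratio to Snhg11 was 1.83, with quartiles of 0.989 and 3.71, so these neighbours in the order overlapped. Meg3 exceeded Rian in 56 cells, with a median ratio of 40.4 over the 32 cells with both, and the ratio ran from 1.09 to 932. The lowest ratio was in cell 23, where Meg3 had 4.13 FPKM and Rian 3.79 FPKM. With the GENCODE exon lengths of both genes, Meg3 exceeded Rian in 55 cells, the median ratio was 22.0, and cell 23 turned to 4.31 FPKM of Meg3 and 7.27 FPKM of Rian. Rian exceeded Mirg in 28 cells, was below it in 6 and equalled it at 0 in 25. Over the 10 cells with both, the ratio of Rian to Mirg had quartiles of 0.272 and 1.97, so these neighbours overlapped too. With mitochondrial genes and Rn18s-rs5 left out and each cell rescaled to a sum of 1000000, the medians were higher, at 1959 for Malat1, 53.4 for Meg3, 22.4 for Snhg11 and 0.200 for Rian, and 0 for Mirg.

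Rian and Mirg were detected only in cells that also had Meg3, and Mirg was not confined to cells with Rian. At an FPKM of 1 or more, Meg3 was found without the others in 35 cells, with Rian alone in 10, with Mirg alone in 1 (cell 33) and with both in 6. No cell had Rian or Mirg without Meg3, and 7 cells had none of the 3. Counting any value above 0, Meg3 was alone in 23 cells, with Rian in 22, with Mirg in 1 and with both in 10, and cell 27 had Rian without Meg3 at 0.141 FPKM. At the GENCODE length of Rian, 24 cells had both Meg3 and Rian at 1 FPKM or more, and 0 cells had Rian without Meg3. At 5 FPKM or more, Meg3 was found with Rian in 2 cells, with Mirg in 2 and with both in 0. Meg3 was the most abundant of the 3 and was detected in 88.1% of all cells. The part of level and depth in this pattern was not tested.

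Across cells the levels of Meg3 and Rian moved together, and those of Mirg less clearly. Spearman's correlation over the 59 cells was 0.57 between Meg3 and Rian, 0.47 between Rian and Mirg and 0.36 between Meg3 and Mirg. Pearson's r on the log2(FPKM + 1) scale was 0.56, 0.52 and 0.49 for the same pairs. The median Spearman correlation over all genes tested was 0.14 with Meg3, 0.18 with Rian and 0.26 with Mirg. Of these genes 15.9%, 22.2% and 38.4% were above 0.3, so before adjustment the values of Mirg lay nearer to those of genes at large. Cells share the preparation and differ in depth and in the number of genes detected, and the Spearman correlation with the number of genes was 0.23 for Meg3, 0.33 for Rian and 0.50 for Mirg. After ranks were adjusted for depth and genes detected, the partial correlation was 0.54 for Meg3 and Rian, 0.37 for Rian and Mirg and 0.30 for Meg3 and Mirg. Over all genes tested its median was 0.044 with Meg3, 0.023 with Rian and 0.028 with Mirg. The shares of genes above 0.3 were then 8.51%, 7.45% and 3.47%. Adding the neuronal protein-coding mean as a further term, chosen after the data had been seen, left 0.34, 0.33 and 0.23. Among the 32 cells with both Meg3 and Rian above 0, the Spearman correlation was 0.51. The values of Mirg above 0 are in 11 cells, too few for such a check.

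The RNA most like Meg3 lay outside the locus. Of 8041 other genes detected in at least 12 cells, Snhg11 on chromosome 2 had the highest Spearman correlation with Meg3, 0.67, and 0.65 after adjustment for depth and genes detected. Over the 51 cells with both above 0 it was 0.72. The gene Cplx2 came next, also at 0.67. The median cell held 38 fragments of Snhg11, 1 of Rian and 0 of Mirg, and the part of these counts in the order was not tested. Between Rian and Snhg11 the Spearman correlation was 0.49, and between Mirg and Snhg11 0.39. Adjusted for depth and genes detected, these were 0.41 and 0.24. With the neuronal protein-coding mean as a further term, Snhg11 had 0.45 with Meg3, 0.13 with Rian and 0.16 with Mirg. The 100 genes most like Meg3 and the 100 most like Snhg11 had 45 in common, and those of Meg3 and Rian 36. Those of Mirg shared 3 with Meg3, 5 with Rian and 1 with Snhg11, and those of Malat1 shared 0 with each of the other 4 RNAs. Each list of 100 is a small part of the genes detected in at least 12 cells. The overlap of unrelated lists of this size was not computed, so the counts near 0 are not read as a trait of Malat1 or Mirg.

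**Figure D3:**
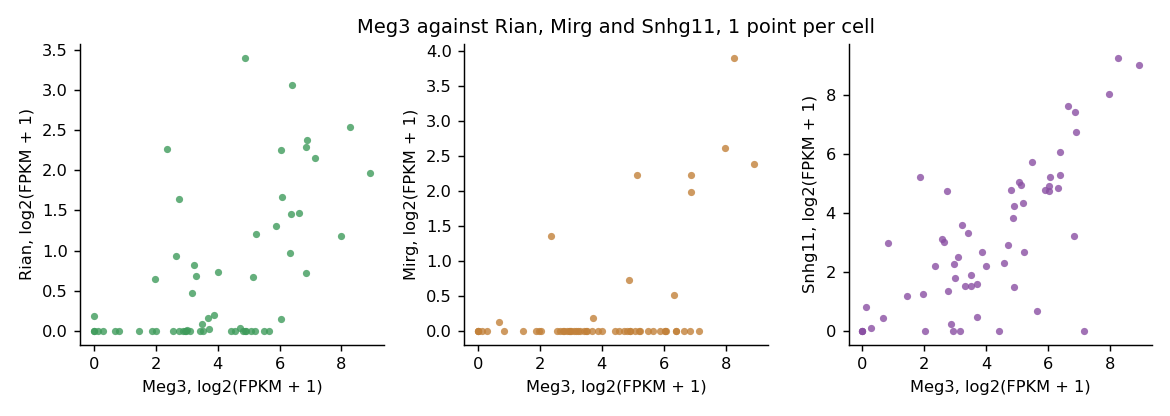
Rian, Mirg and Snhg11 against Meg3 as log2(FPKM + 1), 1 point per cell (n = 59). Snhg11 tends to rise with Meg3 (Spearman correlation 0.67), with exceptions such as cell 2, where Snhg11 is at 0. Rian follows Meg3 with many cells at or near 0 (Spearman correlation 0.57), and Mirg is above 1 FPKM in 7 cells.

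The RefSeq promoter windows of Meg3, Snhg11 and Malat1 are shown (GRCm38.p6, 250 bases before to 50 after the start, 5′ to 3′ on the gene's strand). Capitals mark the cAMP response element TGACGTCA, the TATA box TATAAA and the CCAAT box CCAAT, each searched on both strands.
Meg3 (chr12:109540746-109541045, plus strand): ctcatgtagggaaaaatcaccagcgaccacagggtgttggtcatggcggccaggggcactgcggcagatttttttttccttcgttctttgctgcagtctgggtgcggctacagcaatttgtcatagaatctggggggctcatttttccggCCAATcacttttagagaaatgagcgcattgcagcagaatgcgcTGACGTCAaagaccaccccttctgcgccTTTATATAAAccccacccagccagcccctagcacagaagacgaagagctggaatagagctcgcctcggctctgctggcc
Snhg11 (chr2:158375463-158375762, plus strand): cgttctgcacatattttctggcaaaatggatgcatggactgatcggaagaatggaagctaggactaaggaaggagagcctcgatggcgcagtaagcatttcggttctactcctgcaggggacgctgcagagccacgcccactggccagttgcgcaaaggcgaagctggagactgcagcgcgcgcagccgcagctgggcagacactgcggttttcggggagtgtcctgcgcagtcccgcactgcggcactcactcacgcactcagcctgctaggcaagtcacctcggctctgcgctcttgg
Malat1 (chr19:5802623-5802922, minus strand): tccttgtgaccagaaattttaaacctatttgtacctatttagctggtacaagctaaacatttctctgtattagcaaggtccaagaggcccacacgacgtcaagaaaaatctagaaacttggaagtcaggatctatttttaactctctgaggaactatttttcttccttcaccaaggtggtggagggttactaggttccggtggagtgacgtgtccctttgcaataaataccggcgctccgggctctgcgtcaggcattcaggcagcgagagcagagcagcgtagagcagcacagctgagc
RefSeq lists 2 starts for Meg3, and the window shown is that of the first. The window of the second start, chr12:109545148-109545447, holds none of the 3 motifs. The first window holds all 3, counted in bases from its start. The cAMP response element begins at -57, the TATA box at -29 and -25, in overlapping letters of opposite strands, and the CCAAT box at -100. Of 32851 mouse promoter windows of this length, 1.79% hold the cAMP response element, 13.6% the TATA box and 37.4% the CCAAT box. The windows of Snhg11 and Malat1 hold none of the 3, nor does the window of Rian. Any link between these motifs and the levels of the RNAs was not tested. The CRE half-site TGACG, held by 20.8% of windows, was found 3 times in the Malat1 window, at -154, -45 and -3, and was absent from that of Snhg11. In the Meg3 window shown, its 2 matches lie within the full element, and the window of the second start has none. RefSeq starts Mirg inside the GENCODE gene, and its window, chr12:109734731-109735030, holds a CCAAT box at -184. GC content was 53.7% for the Meg3 window shown, 60.0% for Snhg11 and 47.0% for Malat1, against a median of 52.7% over all windows.

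Meg3, Rian and Snhg11 tended to be higher in cells with higher levels of neuronal protein-coding genes, with exceptions, and Malat1 followed them little. The list held 25 genes, all in the table, for synaptic vesicles (Snap25, Syt1, Syn1), the neuronal cytoskeleton (Tubb3, Map2, Nefl), RNA binding (Rbfox3, Elavl3, Celf4) and GABA synthesis (Gad1, Gad2). The Spearman correlation between an RNA and the mean log2(FPKM + 1) of the list was 0.71 for Snhg11, 0.60 for Meg3, 0.59 for Rian, 0.41 for Mirg and 0.16 for Malat1 over the 59 cells. Adjusted for depth and genes detected it was 0.63, 0.58, 0.52, 0.19 and -0.087 in the same order. By this measure Snhg11, Meg3 and Rian followed the neuronal genes, Mirg did so before the adjustment and from 11 cells above 0, and Malat1 did not. Exceptions were cells 9, 7 and 11, whose neuronal means of 6.98, 6.75 and 6.54 were among the highest. They had 8.32, 5.78 and 7.55 FPKM of Meg3, below its median of 13.7, and 0.766, 0 and 0 FPKM of Rian.

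**Figure D4:**
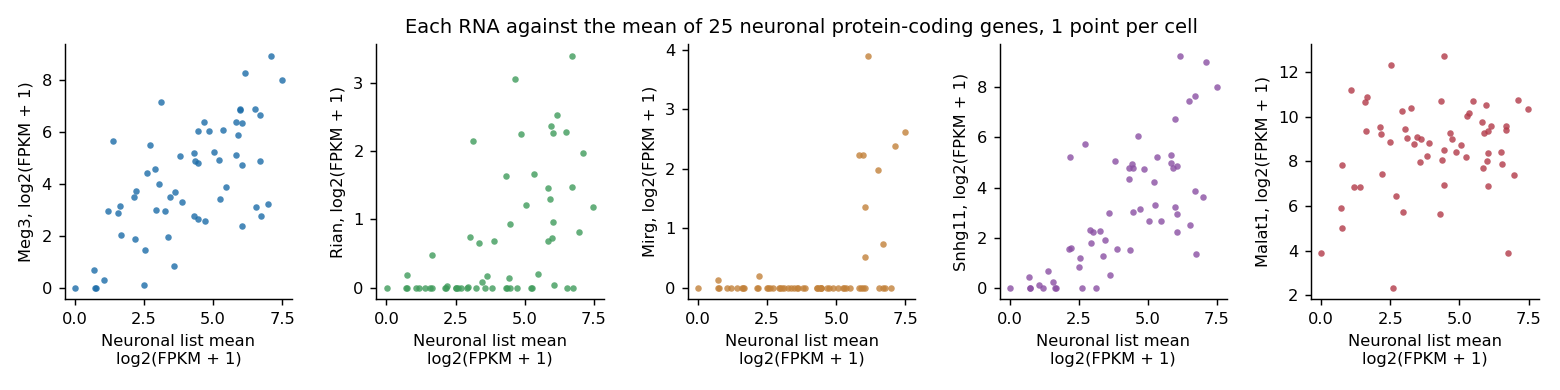
Each RNA as log2(FPKM + 1) against the mean log2(FPKM + 1) of 25 neuronal protein-coding genes, 1 point per cell (n = 59). Snhg11, Meg3 and Rian are higher towards the right (Spearman correlation 0.71, 0.60 and 0.59), and Malat1 shows no such slope (Spearman correlation 0.16).

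Gene by gene the picture was alike. Meg3 had a Spearman correlation above 0.3 with 24 of the 25 neuronal genes (median 0.46), where 15.9% of all 8041 genes tested passed that value and their median was 0.14. The highest were Snap25, the vesicle fusion protein (0.63), and Rbfox3, which encodes the neuronal nuclear antigen NeuN (0.62). The lowest were Tubb3, a neuronal tubulin (0.31), and Elavl3, a neuronal RNA-binding protein (-0.088). Adjusted for depth and genes detected, 21 of 25 stayed above 0.3, against 8.51% of all genes.

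Rian had 22 of 25 above 0.3 (median 0.46, against 0.18 and 22.2% over all genes). Rbfox3 (0.68) and Uchl1, a neuronal deubiquitinase (0.61), were highest, and Tubb3 (0.22) and Elavl3 (-0.10) lowest. Snhg11 had 24 of 25 (median 0.57, against 0.23 and 32.5% over all genes). Gad2 and Uchl1 led with 0.72 and 0.69, and Syn2, a synapsin, and Elavl3 were lowest with 0.37 and 0.17. Adjusted for depth and genes detected, 18 of 25 genes stayed above 0.3 for Rian and 19 for Snhg11, where 7.45% and 9.1% of all genes did.

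Mirg had 17 of 25 above 0.3, but so did 38.4% of all genes, and after the adjustment 1 of 25 did, against 3.47%. Malat1 had 1 of 25 above 0.3, where 13.7% of all genes passed, and 1 of 25 after the adjustment, against 2.59%. That gene was Elavl3 in both cases, with a Spearman correlation of 0.44 before the adjustment and 0.38 after it. Before the adjustment Elavl3 was also the lowest of the list for Meg3, Rian, Snhg11 and Mirg. Its median was 12.5 FPKM, and 48 cells had it.

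Genes of myelin-forming oligodendrocytes had the opposite sign with Meg3, Rian, Snhg11 and Mirg. The Spearman correlation with the mean of 10 oligodendrocyte genes was -0.43 for Meg3, -0.28 for Rian, -0.24 for Snhg11 and -0.19 for Mirg, and 0.23 for Malat1. All 10 genes were below 0 for Meg3, Rian and Snhg11, and all 10 above 0 for Malat1. Over the 8041 genes tested, 1638 were below 0 for Meg3, 1197 for Rian and 855 for Snhg11, and 7152 were above 0 for Malat1, so the sign with Malat1 is that of most genes. Adjusted for depth and genes detected, Mbp (-0.16) and Mobp (-0.042), both genes of myelin proteins, were below 0 with Malat1. The rest of the 10 stayed above 0, from 0.14 for Cldn11 to 0.23 for Mal. The adjusted value of the list mean with Malat1 was 0.16. The median adjusted value with Malat1 was 0.17 over the 10 genes, against -0.017 over all genes tested. For Meg3 the lowest was Ermn, a myelin sheath protein, at -0.55. With microglia genes the Spearman correlation of the list mean lay between 0.012 and 0.16 for the 5 RNAs, and with astrocyte genes between 0.083 and 0.30. After that adjustment the microglia values were below 0 for all 5 RNAs, from -0.23 for Snhg11 to -0.10 for Meg3. The adjusted astrocyte values were -0.20 for Mirg and 0.0072 to 0.10 for the others. Of 13 astrocyte genes tested, 1 had a Spearman correlation above 0.3 with Meg3, 3 with Rian and 1 with Snhg11. The shares over all genes were 15.9%, 22.2% and 32.5%. With Mirg and Malat1 0 of 13 did, against 38.4% and 13.7%. Aldoc, a glycolytic enzyme, was above 0.3 with Meg3 (0.40), Rian (0.44) and Snhg11 (0.48). Of 6 oligodendrocyte precursor genes 2 were detected in at least 12 cells, and Olig1, which mature oligodendrocytes also make, had -0.29 with Meg3 and 0.26 with Malat1. With the means of endothelial and mural, erythroid and off-tissue genes the correlation lay between -0.16 and 0.29 for the 5 RNAs. These last lists were at a summed median of 0 FPKM.

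**Figure D5:**
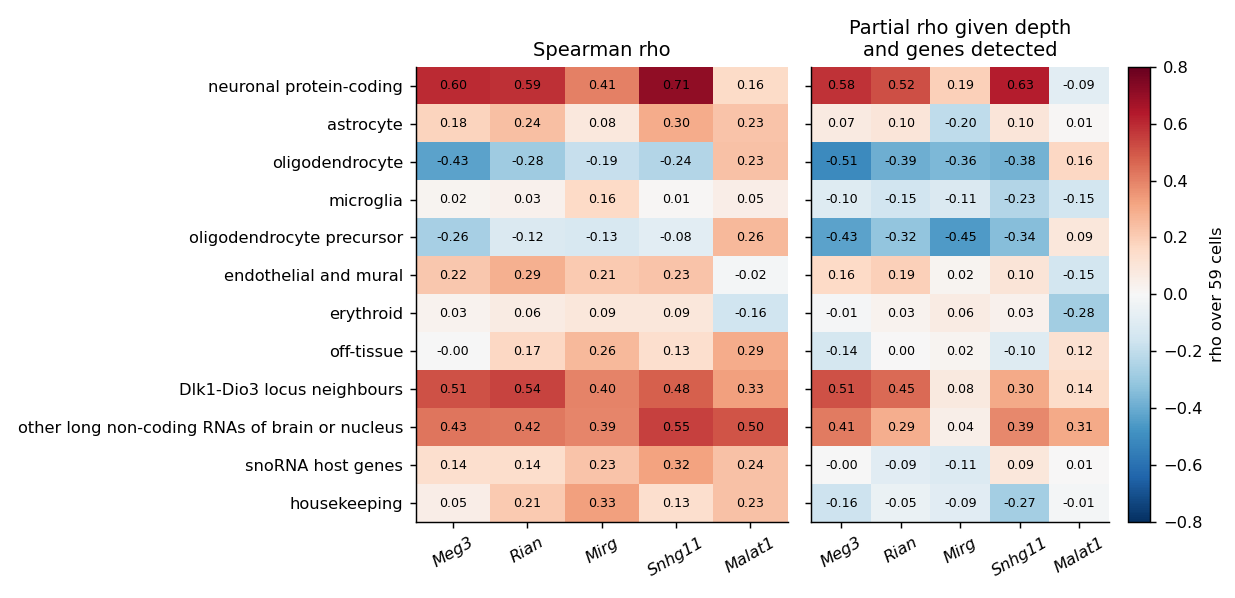
Spearman correlation over 59 cells between each RNA and the mean log2(FPKM + 1) of 12 gene lists, as measured on the left and adjusted for depth and genes detected on the right. Snhg11, Meg3 and Rian have their highest values with the neuronal list, and their oligodendrocyte values are below 0 in both panels.

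Meg3 was below 1 FPKM in cells 10, 21, 27, 40, 41, 45 and 53, and their neuronal genes ranged widely. Of the 25 neuronal genes, cell 53 had 0, cell 27 had 4, cell 41 had 5, cell 40 had 7 and cell 21 had 8, while cell 45 had 16 and cell 10 had 22. All 10 oligodendrocyte genes were detected in cells 10, 21, 40 and 45, and all 12 microglia genes in cells 10 and 21. The mean log2(FPKM + 1) of cell 21 was 9.66 for microglia genes and 3.91 for oligodendrocyte genes. Cells 27, 41 and 53 had 475, 907 and 519 genes detected, and Meg3 was listed at 0 in them. Cell 40 was deep, with 2692282 fragments, and held 11 fragments of Meg3 beside 44423 of Malat1 (2361 FPKM). Cell 10 shows that neuronal genes were also found where Meg3 was low, at 0.764 FPKM from 12 fragments.

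The genes most like each RNA were named by rank of the Spearman correlation among genes detected in at least 12 cells, leaving out mitochondrial genes. For Meg3 they were Snhg11 (0.67), Cplx2, a complexin of synaptic vesicle release (0.67), Snap25 (0.63), Frrs1l, an AMPA receptor assembly factor (0.62), Rbfox3 (0.62), Slc6a17, a vesicular amino acid transporter (0.62), Rtn1 (0.61) and Map1b, a microtubule-associated protein (0.61). The lowest were Cryab, a small heat shock protein, at -0.56, Ermn at -0.55 and Fth1, ferritin heavy chain, at -0.55. For Rian they were Prkce, a protein kinase C (0.73), the imprinted non-coding RNA Peg13 (0.72), Rbfox3 (0.68), Dnm1l, which divides mitochondria (0.67), Frrs1l (0.64), Usp29, a paternally expressed imprinted gene (0.63), Pclo, a presynaptic scaffold (0.62), and Uchl1 (0.61). The lowest were Fth1 (-0.46), Trf, transferrin (-0.42), and Cd9 (-0.41).

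For Snhg11 the leading genes were Gad2 (0.72), Gdap1, Negr1, a neuronal adhesion protein, Gabarapl1, an autophagy protein, Uchl1 (0.69 each), Bsn, a presynaptic scaffold (0.68), Cacng2, the AMPA receptor partner stargazin, and Scn3a, a sodium channel (0.67 each). Fth1 (-0.52), Cd81 (-0.50) and Cd63 (-0.47) were lowest. For Mirg they were Sumf1 (0.71), Tnfrsf21 (0.70), Kbtbd7 (0.69), Nbn, a DNA repair protein (0.67), Stradb (0.65), Med14, a Mediator subunit, and Tmem91 (0.62 each). These genes were detected in 12 to 20 cells with a median of 0 FPKM, so for Mirg this is a likeness between sparse values. Lars2 (-0.37), Gm15564 (-0.36) and the ribosomal RNA gene Rn18s-rs5 (-0.35) were lowest for Mirg.

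Malat1 had another set of neighbours. The highest were Gm26917 (0.65), Lrp1b (0.63), Herc2, a ubiquitin ligase (0.63), Pnisr, a protein of nuclear speckles (0.61), Mast4 and Ccnl1, a cyclin that acts in splicing (0.60 each), Zfr, an RNA-binding zinc finger protein (0.58), and Ank2 (0.57). The lowest were the ribosomal protein genes Rps26 (-0.40), Rpl37a (-0.40) and Rpl36 (-0.39). Adjusted for depth and genes detected, the 8 highest kept values between 0.47 and 0.56.

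Of 14 other long non-coding RNAs of brain or nucleus in the table, 7 were detected in at least 12 cells. With Meg3, 6330403K07Rik (0.57), 1700020I14Rik (0.48) and Gm10419 (0.32) were above 0.3, against 15.9% of all genes, while Neat1 was at -0.23. After the same adjustment they had 0.53, 0.45 and 0.24. With Malat1, Neat1, the RNA that builds paraspeckles, had a Spearman correlation of 0.51, Xist, the RNA of X inactivation, 0.44 and Sox2ot 0.31, and 6330403K07Rik 0.13, where 13.7% of all genes were above 0.3. Pantr1 had 0.18 with both Meg3 and Malat1. Neat1 lies 22.0 kb from Malat1 on the same strand, had a median of 0.710 FPKM and was detected in 28 cells. Adjusted values with Malat1 were 0.41 for Neat1, 0.35 for Xist and 0.14 for Sox2ot.

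Of the other imprinted non-coding RNAs, Peg13 had a median of 4.72 FPKM and was detected in 35 cells, and its Spearman correlation was 0.72 with Rian and 0.60 with Meg3. Snhg14, the transcript of the Prader-Willi region, was detected in 24 cells, with 0.47 for Snhg11 and 0.39 for Rian. Kcnq1ot1 was detected in 10 cells and Airn in 2. That list also held Gm26917, which is not known to be imprinted and is described with Malat1. Among 9 measured snoRNA host genes, 6 were detected in at least 12 cells. Of these 6, 0 had a Spearman correlation above 0.3 with any of the 5 RNAs, where 13.7% to 38.4% of all genes did. Snhg3 and Snhg17, detected in 2 and 7 cells, had 0.48 and 0.41 with Mirg. Gas5, the widest of them with 51 cells and a median of 28.6 FPKM, had 0.20 with Snhg11 and 0.058 with Meg3.

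Of the 7 protein-coding neighbours of the locus in the table, 1 was detected in at least 50% of cells, against 11.7% of all genes. All 7 were detected in fewer cells than Meg3, which with so few wide genes is not read as their trait. Dio3 is not in the table. Dlk1, which encodes a Notch-like membrane protein, was detected in 8 cells and Rtl1, a retrotransposon-derived gene, in 4. Begain, which encodes a synaptic protein, was detected in 26 cells, Wars, a tryptophanyl-tRNA synthetase gene, in 27, Ppp2r5c, a phosphatase subunit, in 34, Slc25a29 in 12 and Wdr25 in 7. With Meg3, the Spearman correlation was 0.39 for Wars and 0.34 for Begain, and 2 of the 4 neighbours tested were above 0.3, against 15.9% of all genes. With depth and genes detected adjusted for, Wars had 0.34 and Begain 0.27, so 1 of 4 was above 0.3, against 8.51% of all genes. Rtl1, Dlk1 and Wdr25, detected in fewer than 12 cells, had 0.40, 0.32 and 0.28 with Meg3 before adjustment. The Spearman correlation with the mean of the 7 neighbours was 0.54 for Rian, 0.51 for Meg3, 0.48 for Snhg11, 0.40 for Mirg and 0.33 for Malat1. The adjusted values were 0.45 for Rian, 0.51 for Meg3, 0.30 for Snhg11, 0.076 for Mirg and 0.14 for Malat1.

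Small RNA genes that overlap the 5 RNAs were seldom above 0. Of 13 snoRNA genes within Rian, 5 are in the table, and Gm24564 was above 0 in 3 cells with a highest value of 208 FPKM. Of 14 miRNA genes on the strand of Mirg, 3 are in the table, and each was above 0 in 1 or 2 cells. The lincRNA Gm26945 within Rian was above 0 in 6 cells. Reads in shared stretches could have been assigned to either gene or dropped. Meg3 also overlaps the opposite-strand gene Gm26906, and Malat1 the opposite-strand gene Gm37376. The labels do not say whether counting used strand. Reads of Gm26906 therefore cannot be told apart from those of Meg3, nor reads of Gm37376 from those of Malat1.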

How the data were processed

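Single-cell RNA-seq of 59 cells was analysed from the authors' deposited FPKM table, which holds 20740 features, 51 of them ERCC spike-ins that were left out. STAR 2.5.3a, featureCounts 1.5.3 and GRCm38 are named per the submitters' processing notes. The sources used here give neither the annotation release nor strandedness. Columns were matched to cells by the number in each title.

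The FPKM values entered all steps unchanged, without a count model. Depth was estimated from the spacing of FPKM times GENCODE M21 exon length for 19366 genes. A median of 73.6% of values up to 20 fragments came out whole within 0.02, so recovered fragments are approximate. Spearman correlation was computed against 8042 genes detected in at least 12 cells. Partial values used residual ranks on depth and genes detected. The log2 values are log2(FPKM + 1). The correlation is a description of cells that share a preparation, with no p-value, and intervals cover counting error over cells only.

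The members and gene lists were chosen with earlier results of these data known. Named genes are the members, the 8 highest and 3 lowest by the Spearman correlation, and the 2 highest and 2 lowest members of each list described. Some genes this rule takes are left out of the text. Any other named gene was chosen after its values were seen. Alternatives were other detection thresholds, rescaling, cell filters, pseudocounts and adjusted ranks. The code was tested on simulated data. Python 3.11.15, numpy 2.4.6, scipy 1.17.1 and pandas 2.3.3 were used.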

Additional observations from a re-analysis of the deposited data

How the results depend on the processing

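No paired analysis was possible because the cells form 1 group and the results come from no test. A threshold of 3 fragments, a subset of 39 deep cells (500000 fragments or more) and the neuronal mean as a further term were chosen after seeing the data. For the Spearman correlation a move of over 0.1 was counted, for shares a value outside the 95% interval, for counts a factor of 1.5 and for medians 1 SD over cells. The share of cells with Rian was 55.9% at any FPKM above 0, 3.39% at 5 or more, 42.4% with each cell rescaled to a sum of 1000000, 49.2% at 3 fragments and 40.7% at the GENCODE exon length, the last also chosen after seeing the data. The share with Mirg was 3.39% at 5 FPKM. The share with Snhg11 was 86.4% above 0 and 52.5% at 5. The median of Malat1 was 1959 after mitochondrial genes and Rn18s-rs5 were left out and cells rescaled, against 463 as deposited. The same rescaling gave 53.4 for Meg3, 22.4 for Snhg11 and 0.200 for Rian, shifts of 1.5 times or more that stayed within 1 SD over cells. All 3 locus RNAs were found in 10 cells above 0 and in 0 at 5 FPKM, Meg3 with Rian in 22 and 2 (21 at 3 fragments), and Meg3 alone in 23 above 0. The Spearman correlation of Meg3 and Mirg was 0.25 without the 2 cells farthest from the median, and Pearson's r was 0.49, or 0.57 with a pseudocount of 10. Given depth, genes detected and the neuronal mean, the Spearman correlation was 0.34 for Meg3 and Rian, 0.23 for Meg3 and Mirg and 0.33 for Rian and Mirg. Given depth and genes detected, the Spearman correlation with the neuronal mean was 0.19 for Mirg and -0.087 for Malat1, and 1 neuronal gene passed 0.3 with Mirg. For Malat1 it was -0.045 in the 46 cells with at least 2000 genes. Of 163 values over 26 results, 138 stayed within these limits, 23 moved and 2 changed sign, both for Malat1. The Spearman correlation with the neuronal mean stayed between 0.54 and 0.63 for Meg3, 0.52 and 0.61 for Rian and 0.63 and 0.75 for Snhg11, and Pearson's r between 0.63 and 0.67, 0.49 and 0.57, and 0.64 and 0.78 in the same order. Why values moved was not tested. The median cell held 1 fragment of Rian and 0 of Mirg.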
